A study of Oryctolagus cuniculus with 12 samples.

Results

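Lymphoid transcripts were examined in full thickness rabbit ear, as a panel of 45 gene symbols that mark T cells, B cells, cytotoxic lymphocytes, the cytokines and chemokines that organize lymphoid tissue, and leukocytes in general. Members were the rows of the expression table that carry one of these symbols, and 34 of the 45 were found among 29587 genes. The other 11 (CD3D, CD3E, CD3G, CD4, CD7, CD8A, CD8B, CD247, CD79A, GZMA and GZMB) carry no symbol there and are described apart where a protein description matched them. Gene expression was measured by bulk RNA-seq in 12 samples from female wild-type rabbits, 10 to 12 weeks old when purchased, in 4 groups of 3 rabbits. NS was normal ear skin without treatment. HS was untreated hypertrophic scar, raised by 4 full thickness wounds of 7 mm on the ventral face of each ear. In the drug-loaded MNs group, each scar was given 1 patch of microneedles carrying a prodrug of the cytostatic 5-fluorouracil (5-Fu). In the 5-Fu injection group, each scar was injected with 120 μg of 5-Fu in 0.1 mL. Both treatments were given on days 22, 29 and 36. All tissue was taken on day 43. A group treated with microneedles without drug was not analysed here, so the patch and its drug cannot be told apart.

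T cells recognize antigen through the T cell receptor, whose CD3 chains pass the signal to the kinases LCK and ZAP70 and the adaptor LAT. B cells signal through a receptor that contains CD79B, and their plasma cell descendants secrete antibody, of which the IgM and IgA classes are joined by JCHAIN. Lymphotoxin and the chemokines CCL19, CCL21 and CXCL13 attract and arrange lymphocytes in lymph nodes and in the aggregates that form in chronically inflamed tissue. RNA of whole tissue sums all cells, so fewer cells of a type and less RNA per cell cannot be told apart.

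Expression is given as FPKM, the fragments on a gene relative to its length and to a library size that had been scaled between samples. Libraries held between 10521472 and 14043667 reads on genes, which made 1 read per kilobase of gene worth an FPKM of 0.0768 to 0.0972. Of the 34 members, 24 had a mean FPKM of at least 1 and were tested, and 2 of these reached it through a single 5-Fu injection sample. The other 10 (CD28, CTLA4, ICOS, FOXP3, MS4A1, PAX5, BLK, GZMK, CXCL13 and CXCR5) had means of 0.135 to 0.851, where a few reads decide a value. Differences are on the log2(FPKM + 1) scale with their standard error (SE) from limma, which understates changes of low genes, and a gene was called at a Benjamini-Hochberg adjusted p under 0.05 over all 13287 tested genes with an absolute log2 difference above 1. Nothing in the labels says more of the replicates than that they are separate samples of 3 rabbits per group.

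A pair of libraries stood apart for these genes, and results are given with and without them where they matter. The first was replicate 1 of the 5-Fu injection group. It held the highest value of the 12 samples for 27 of 34 members, against 12.3% of all genes above 0 in at least 1 sample, and for 21 members its value was over 2 times that of the next sample, against 2.66% of those genes. The second was NS replicate 2, which was the highest NS sample for 30 of 34 members, against 29.6% of those genes. Per sample, the mean of the 34 members on the log2(FPKM + 1) scale, after subtraction of each gene's mean, was -0.30, 0.60 and -0.66 in NS, -0.40, -0.37 and -0.36 in HS, 0.05, -0.45 and -0.27 in drug-loaded MNs, and 1.78, 0.06 and 0.32 in 5-Fu injection. The 3 HS samples thus lay close together, and all 3 samples of the 5-Fu injection group lay above them.

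**Figure D1:**
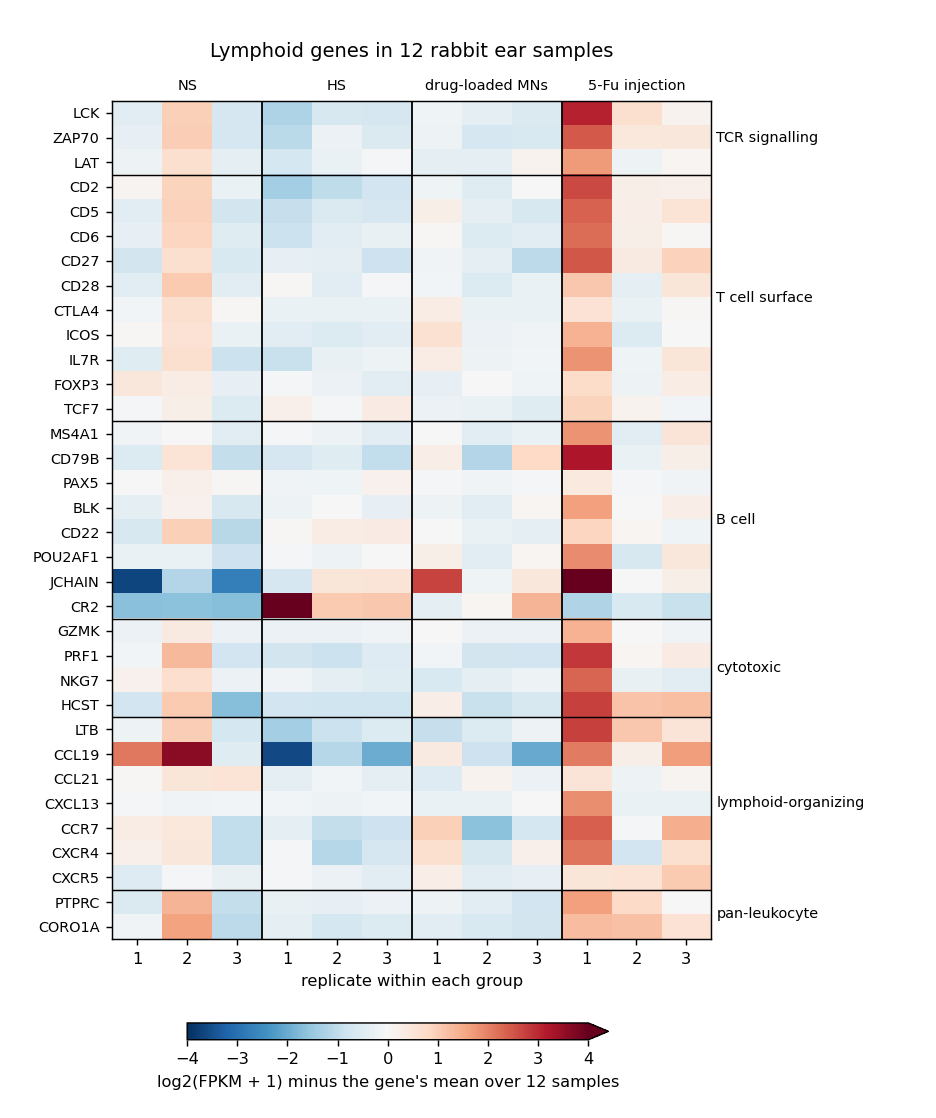
Colours give log2(FPKM + 1) minus the mean of that gene over the 12 samples, for the 34 members (rows, ordered by role) in each sample (columns, by group and replicate). Replicate 1 of the 5-Fu injection group is the darkest red column, with the highest value for 27 of 34 members, whereas CR2 is highest in HS and JCHAIN is lowest in NS.

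Comparing the lists by role, the 3 members of T cell receptor signalling averaged -1.003, -0.38 and -0.45 in HS and 2.41, 0.29 and 0.23 in 5-Fu injection on the centred log2 scale. The 10 T cell surface genes averaged -0.49, -0.42 and -0.37 in HS and 1.62, -0.04 and 0.30 after 5-Fu injection. The 4 cytotoxic genes averaged -0.47, -0.58 and -0.48 in HS and 2.33, 0.23 and 0.25 after 5-Fu injection. Without replicate 1 of the injected group their differences from HS were 1.96 for HCST, 0.90 for PRF1, 0.14 for GZMK and -0.02 for NKG7. In these lists, and in those of lymphoid-organizing and pan-leukocyte genes, all 3 samples of the 5-Fu injection group lay above all 3 HS samples. The 8 B cell genes differed, with 0.36, 0.10 and 0.04 in HS and 1.59, -0.24 and 0.07 in 5-Fu injection, so that the groups overlapped. Of these 8, 7 had a higher mean after 5-Fu injection than in HS, and CR2 a lower one, at -3.13. NS held the lowest values of the B cell list, at -0.92 and -1.05 in replicates 1 and 3. Between HS and NS, 5 of the 8 were higher in HS, led by CR2 at 3.91 and JCHAIN at 2.62. The other 3, CD79B, MS4A1 and PAX5, were lower, at -0.38, -0.03 and -0.13. The level of this list thus leaned on CR2 and, against NS, also on JCHAIN.

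**Figure D2:**
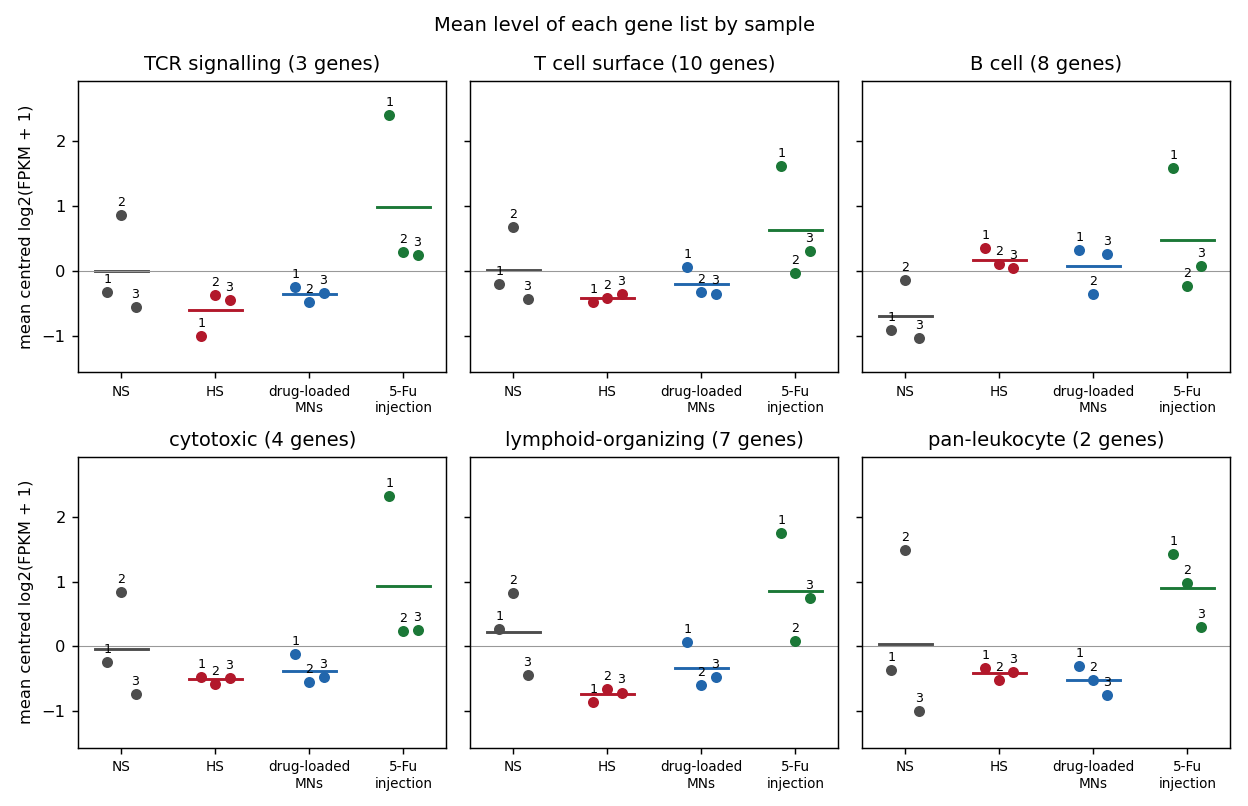
Each panel plots, for 1 list of members, the mean of log2(FPKM + 1) minus the gene's 12-sample mean in each sample, with points numbered by replicate and a line at the group mean. Samples of the 5-Fu injection group lie above the 3 HS samples in each list except B cell genes.

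T cell receptor signalling was read from the kinases LCK and ZAP70 and the adaptor LAT. LCK, which phosphorylates the CD3 chains, had an FPKM of 3.10, 9.76 and 2.54 in NS, 1.35, 2.57 and 2.47 in HS, 3.91, 3.32 and 2.76 in drug-loaded MNs and 46.3, 7.77 and 5.19 in 5-Fu injection. All 3 injected samples were above HS, and the first was far above the others. The log2 difference between 5-Fu injection and HS was 2.15 (SE 0.65, limma adjusted p = 0.0764), which did not pass the threshold, and it was 1.26 without replicate 1 of the 5-Fu injection group (limma adjusted p = 0.132). ZAP70 followed the same order, with 1.73 (limma adjusted p = 0.0838). LAT, the scaffold that the kinases act on, was 4.29, 8.66 and 3.78 in NS, 2.80, 4.16 and 4.79 in HS, 3.75, 3.66 and 5.79 in drug-loaded MNs and 19.0, 4.38 and 5.57 in 5-Fu injection, where the groups overlapped.

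Among T cell surface genes, CD2, an adhesion receptor of T and NK cells, was 3.00, 5.84 and 2.10 in NS, 0.440, 0.835 and 1.16 in HS, 2.29, 1.65 and 2.73 in drug-loaded MNs and 21.9, 3.32 and 3.30 in 5-Fu injection. HS was the lowest group, with no overlap with any of the other 3. None of these differences was called with all 12 samples, at -1.30 between HS and NS (SE 0.56, limma adjusted p = 0.189), 0.84 between drug-loaded MNs and HS (limma adjusted p = 0.691) and 2.07 between 5-Fu injection and HS (SE 0.56, limma adjusted p = 0.0583). That between HS and NS was called in the fit without 5-Fu injection replicate 1, a sample of neither group that enters the shared spread (limma adjusted p = 0.0233). CD27, a costimulatory receptor of the TNF receptor family, was 1.97, 6.77 and 2.28 in NS, 2.96, 2.81 and 1.77 in HS, 3.51, 2.85 and 1.42 in drug-loaded MNs and 26.8, 5.34 and 8.46 in 5-Fu injection. Its difference between 5-Fu injection and HS was 1.77 (SE 0.52, limma adjusted p = 0.0708). TCF7, a transcription factor of T cells that is also expressed outside them, was flatter, at 4.25, 5.36 and 2.75 in NS, 5.30, 4.12 and 5.78 in HS, 3.64, 3.53 and 2.90 in drug-loaded MNs and 9.17, 4.96 and 4.05 in 5-Fu injection. CD5 and CD6, scavenger receptor family members that tune T cell activation, and IL7R, the receptor of the survival cytokine IL-7, also had all 3 injected samples above HS, by 1.78, 1.36 and 1.17, and none passed the test. The regulatory T cell factor FOXP3 ranged from 0.053 to 1.40 over all samples, and the checkpoint receptor CTLA4 was listed at 0 in the 3 HS samples and reached 0.848 in NS replicate 2.

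Rows matched by protein description, after the table had been seen, gave the chains of the receptor itself. CD3E was 41.6, 5.72 and 4.62 in 5-Fu injection and had a mean FPKM of 1.32 in HS, a log2 difference of 2.39 (SE 0.72, limma adjusted p = 0.0766). The constant regions of the receptor alpha, beta and gamma chains differed by 2.39, 2.28 and 2.96 (limma adjusted p = 0.0653, 0.0551 and 0.108), and CD4, the coreceptor of helper T cells, by 1.64 (limma adjusted p = 0.0840). For each of these 5 rows every injected sample lay above every HS sample, which held for 10.1% of all genes above 0 in at least 1 sample. None of them was called. CD247, a further receptor chain, also had every injected sample above HS, at 1.47 (limma adjusted p = 0.108). The groups overlapped for the receptor delta chain, at 4.04, 0.768 and 0.713 in HS and 6.11, 0.424 and 0.181 in 5-Fu injection (difference -0.12, limma adjusted p = 0.926), and for both chains of CD8, the coreceptor of cytotoxic T cells. CD8A was 0.317, 0.731 and 1.67 in HS and 6.17, 0.760 and 0.364 in 5-Fu injection (difference 0.50, limma adjusted p = 0.583), and CD8B, too low for the test, was 0.0597, 0.454 and 0.631 in HS and 4.17, 0.939 and 0.267 in 5-Fu injection. CD3D, CD3G and GZMA also matched further rows by description, so their values are uncertain, and whether reads were split between rows was not tested. Between 5-Fu injection and HS, CD3D differed by 2.01 in the row used and by 1.06 in a further row. CD3G differed by 2.21 and 0.29. For CD3D and CD3G the injected samples lay above HS in the row used and overlapped HS in the further row, and none was called. GZMA was too low for the test, and its injected samples overlapped HS in each row. In the row used it was 0.234, 0 and 0 in HS and 3.54, 0.123 and 0.941 in 5-Fu injection.

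Among the 34 members, CR2, listed here with the B cell genes, was the single one called higher in scar than in normal skin. Replicate 1 of the 5-Fu injection group was the highest sample for 6 of the 8 B cell genes, whereas CR2 was 0.489 there. The call is thus one of CR2 and not of the B cell list. CR2 (ENSOCUG00000034082, chromosome 16, 65004985 to 65038243) encodes complement receptor 2, found on B cells and on the follicular dendritic cells of lymphoid follicles. Its FPKM was 0.0706, 0.0940 and 0.0521 in NS, 79.6, 6.11 and 6.31 in HS, 1.68, 2.65 and 7.77 in drug-loaded MNs and 0.489, 1.25 and 0.861 in 5-Fu injection. NS rested on 3, 4 and 2 reads, whereas HS held 2813, 227 and 253. Every HS sample was thus above every NS sample, with 1 HS sample about an order of magnitude above the others. CR2 was higher in HS than in NS by 3.91 (SE 0.78, limma adjusted p = 0.0137), and by 2.75 without HS replicate 1 (limma adjusted p = 0.00864). With a pseudocount of 0.1 in place of 1 the difference was 6.42 (limma adjusted p = 0.00258). The call was kept in each of the 12 fits that left out a sample and was lost with limma voom on the reads (adjusted p = 0.115) and with NS and HS alone in the fit (limma adjusted p = 0.0505).

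After 5-Fu injection CR2 was lower than in HS by 3.13 on the log2 scale (difference -3.13, SE 0.78, limma adjusted p = 0.0487), with no overlap. This call lay at the threshold and, of the 12 fits without a sample, it was kept only in that without 5-Fu injection replicate 2 (limma adjusted p = 0.0456). The adjusted p in the other 11 ranged from 0.0502 without drug-loaded MNs replicate 3 to 0.134 without 5-Fu injection replicate 3, and was 0.0706 without HS replicate 1, where the difference was -1.97. The comparisons of HS with NS and of 5-Fu injection with HS share the HS samples. CR2 in drug-loaded MNs differed from HS by -1.87 (SE 0.78, limma adjusted p = 0.531) and the samples overlapped.

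JCHAIN (ENSOCUG00000027219, chromosome 15, 79302092 to 79312845), the antibody joining chain, was the most abundant B lineage member. Its FPKM was 3.95, 26.8 and 8.39 in NS, 37.9, 85.7 and 88.0 in HS, 405, 55.1 and 83.8 in drug-loaded MNs and 1057, 60.5 and 73.2 in 5-Fu injection. All 9 scar samples were above all 3 NS samples, and replicate 1 of each treated group was several times higher than the rest. The differences from NS were 2.62 in HS (SE 1.08, limma adjusted p = 0.172), 3.52 in drug-loaded MNs (limma adjusted p = 0.181) and 3.96 in 5-Fu injection (limma adjusted p = 0.175), none of which was called. Without both 5-Fu injection replicate 1 and NS replicate 2, a setting chosen after seeing the data, the difference between HS and NS was 3.30 and was called (limma adjusted p = 0.0343). Between 5-Fu injection and HS the difference was 1.34, and 0.01 without replicate 1 of the injected group.

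Antibody light chains, matched by description after the table had been seen, were measured beside it. The immunoglobulin lambda constant region was 0.244, 1.38 and 2.16 in NS, 29.0, 94.2 and 31.0 in HS, 396, 42.8 and 64.1 in drug-loaded MNs and 1027, 100.05 and 43.4 in 5-Fu injection. Every scar sample lay above every NS sample, and the same 2 samples as for JCHAIN were highest. The difference was called between HS and NS, at 4.42 (SE 1.09, limma adjusted p = 0.0327), and between drug-loaded MNs and NS, at 5.63 (SE 1.09, limma adjusted p = 0.0411), and was 6.30 between 5-Fu injection and NS (limma adjusted p = 0.0769). The call between HS and NS was lost when any 1 NS or HS sample was left out (limma adjusted p = 0.0534 to 0.119), as was the call for drug-loaded MNs when any 1 NS, HS or drug-loaded MNs sample was (limma adjusted p = 0.0529 to 0.146). Both calls were also lost with limma voom on the reads (adjusted p = 0.248 and 0.321) and without a filter on low values (limma adjusted p = 0.0633 and 0.0904), and that for drug-loaded MNs with the replicate block (limma adjusted p = 0.0646). The kappa constant region showed the same order of groups, at 0.138, 1.34 and 0.458 in NS and 14.0, 6.94 and 9.61 in HS, and was not called. Antibody genes belong to a multigene family, whose reads the authors' counting may have split between rows.

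Markers of B cells themselves were low. MS4A1 (CD20) did not exceed 0.936 in any sample but replicate 1 of the 5-Fu injection group, at 3.62. CD79B was 0.670, 0.910 and 0.337 in HS and 24.2, 1.21 and 2.14 in 5-Fu injection, and the B cell transcription factor PAX5 stayed at or under 0.478 in all samples. BLK, a kinase of the B cell receptor, and POU2AF1, a coactivator of antibody transcription, reached 4.24 and 5.64 in replicate 1 of the 5-Fu injection group and at most 1.02 and 1.43 in the other 11 samples. The inhibitory receptor CD22 was 3.71, 4.59 and 4.72 in HS and 7.21, 3.83 and 3.01 in 5-Fu injection, and its highest value was 7.86 in NS replicate 2.

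**Figure D3:**
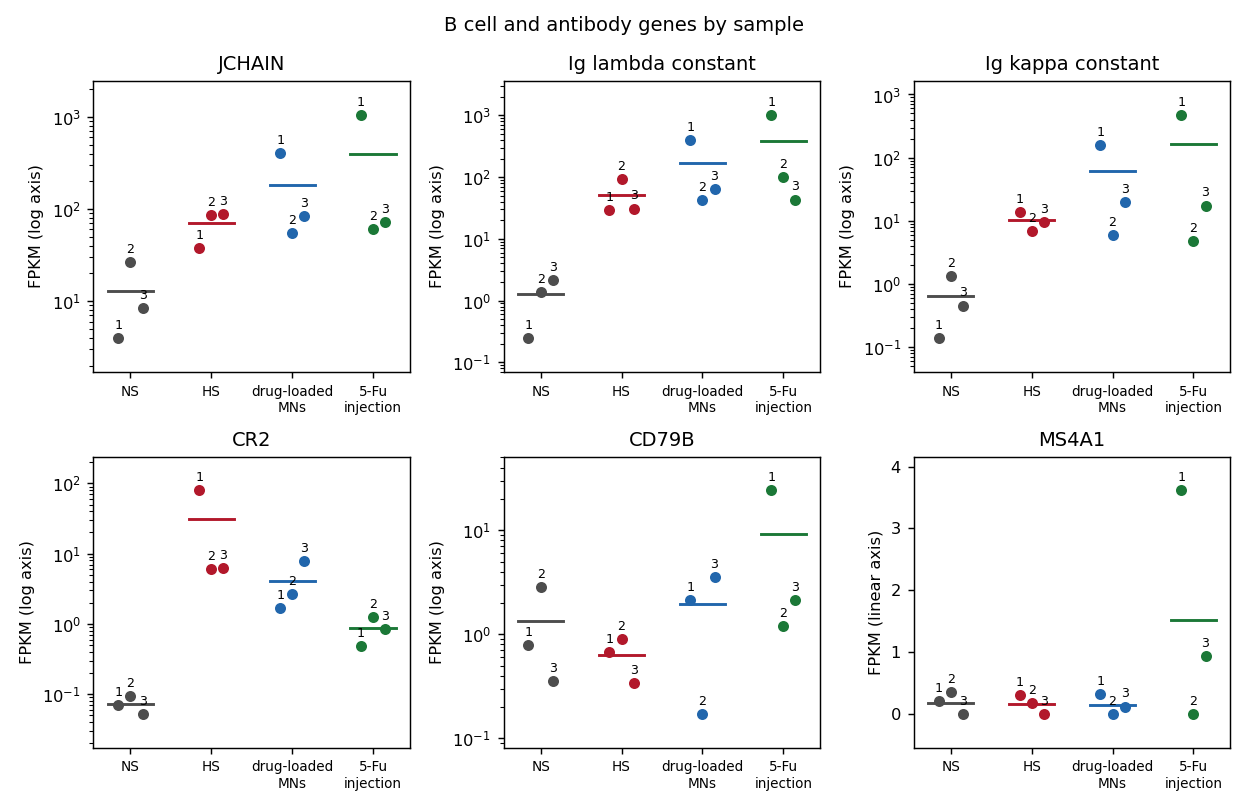
FPKM of 6 B lineage genes by group, with points numbered by replicate and a line at the group mean, on log axes except for MS4A1. All 9 scar samples lie above NS for JCHAIN and both light chains, CR2 is high in HS, and MS4A1 exceeds 0.936 only in replicate 1 of the 5-Fu injection group.

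Of the cytotoxic genes, HCST (ENSOCUG00000006285, scaffold GL018786, 689243 to 690954), which encodes the DAP10 signalling adaptor of NK and T cell receptors, was the most abundant. Its FPKM was 15.4, 57.0 and 7.63 in NS, 15.6, 15.1 and 15.2 in HS, 32.5, 14.2 and 16.9 in drug-loaded MNs and 188, 60.9 and 64.4 in 5-Fu injection. The HS samples were nearly equal, and each injected sample was above all samples of the other groups. HCST was higher after 5-Fu injection than in HS by 2.49 (SE 0.62, limma adjusted p = 0.0487). Without replicate 1 of the injected group the difference was 1.96 (limma adjusted p = 0.117). The call was kept without NS replicate 2, NS replicate 3 or 5-Fu injection replicate 2 (limma adjusted p = 0.0282, 0.0375 and 0.0343) and lost without any of the other 9 samples, where adjusted p ranged from 0.0523 without drug-loaded MNs replicate 1 to 0.134 without HS replicate 3. PRF1 (perforin), which opens pores in target cells, was 1.19, 4.74 and 0.389 in NS, 0.423, 0.301 and 0.652 in HS, 1.19, 0.424 and 0.370 in drug-loaded MNs and 15.7, 1.50 and 1.94 in 5-Fu injection. Its difference between 5-Fu injection and HS was 1.77 (limma adjusted p = 0.132), with all injected samples above HS. NKG7, a cytotoxic granule protein, was 7.18, 0.305 and 0.208 in 5-Fu injection and reached 0.465 in HS, and the granzyme GZMK was at or under 0.522 outside replicate 1 of the injected group, at 2.09.

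Of the genes that organize lymphoid tissue, LTB (ENSOCUG00000006703, chromosome 12, 20405445 to 20407151) encodes lymphotoxin beta, the membrane-bound cytokine required for lymph node formation. Its FPKM was 12.5, 29.8 and 8.48 in NS, 5.08, 7.55 and 9.71 in HS, 7.24, 9.54 and 12.5 in drug-loaded MNs and 103, 31.5 and 21.4 in 5-Fu injection. All 3 injected samples were above HS and above drug-loaded MNs, whose samples overlapped each other. LTB was higher after 5-Fu injection than in HS by 2.36 (SE 0.55, limma adjusted p = 0.0389), and by 1.71 without replicate 1 (limma adjusted p = 0.0821). The call was also lost without NS replicate 1 (limma adjusted p = 0.0610), without any 1 HS sample (0.101 to 0.103), without drug-loaded MNs replicate 2 (0.0612) and without 5-Fu injection replicate 3 (0.0889), and it was kept without any of the other 5 samples.

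CCL19 (ENSOCUG00000001515, chromosome 1, 19132144 to 19133670) and CCL21 (ENSOCUG00000016448, chromosome 1, 19113574 to 19114645) encode the ligands of the homing receptor CCR7. CCL19 was 67.2, 192 and 10.3 in NS, 0.296, 6.18 and 3.00 in HS, 19.5, 8.05 and 2.96 in drug-loaded MNs and 66.1, 17.9 and 49.7 in 5-Fu injection. HS lay below NS and below 5-Fu injection in all samples and overlapped with drug-loaded MNs. CCL19 was lower in HS than in NS, with a difference of -3.99 (SE 1.00, limma adjusted p = 0.0348). This call was lost without NS replicate 1 (limma adjusted p = 0.117), NS replicate 2 (0.107), HS replicate 1, 2 or 3 (0.126, 0.0513 and 0.0822) or drug-loaded MNs replicate 2 (0.0523). Between 5-Fu injection and HS the difference was 3.58 (SE 1.00, limma adjusted p = 0.0630), and 3.21 without replicate 1 (limma adjusted p = 0.145), neither past the threshold, although it was called without NS replicate 2, NS replicate 3 or 5-Fu injection replicate 2 (limma adjusted p = 0.0486, 0.0407 and 0.0410).

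CCL21, made by lymphatic endothelium, was the most abundant of all members, at 715, 968 and 1011 in NS, 523, 645 and 525 in HS, 478, 755 and 591 in drug-loaded MNs and 975, 597 and 744 in 5-Fu injection. It was below NS in every HS sample by a small difference of -0.66 (SE 0.24, limma adjusted p = 0.122). Their receptor CCR7 was 8.57, 9.62 and 2.96 in NS, 5.06, 3.06 and 3.46 in HS, 14.3, 1.55 and 3.78 in drug-loaded MNs and 40.7, 6.54 and 20.8 in 5-Fu injection, a difference of 1.99 between 5-Fu injection and HS (SE 0.70, limma adjusted p = 0.111). CXCR4, the receptor of CXCL12, was 4.55, 5.68 and 1.46 in NS, 3.72, 1.20 and 2.03 in HS, 6.54, 2.15 and 4.55 in drug-loaded MNs and 20.6, 1.84 and 6.65 in 5-Fu injection, and the groups overlapped. CXCL13, which draws B cells into follicles, was at or under 0.190 in 11 samples and 3.44 in replicate 1 of the 5-Fu injection group. Its receptor CXCR5 was 0.586, 0.405 and 0.235 in HS and 1.34, 1.45 and 2.43 in 5-Fu injection, where replicate 3 rather than 1 was highest, and its mean was too low for the test.

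**Figure D4:**
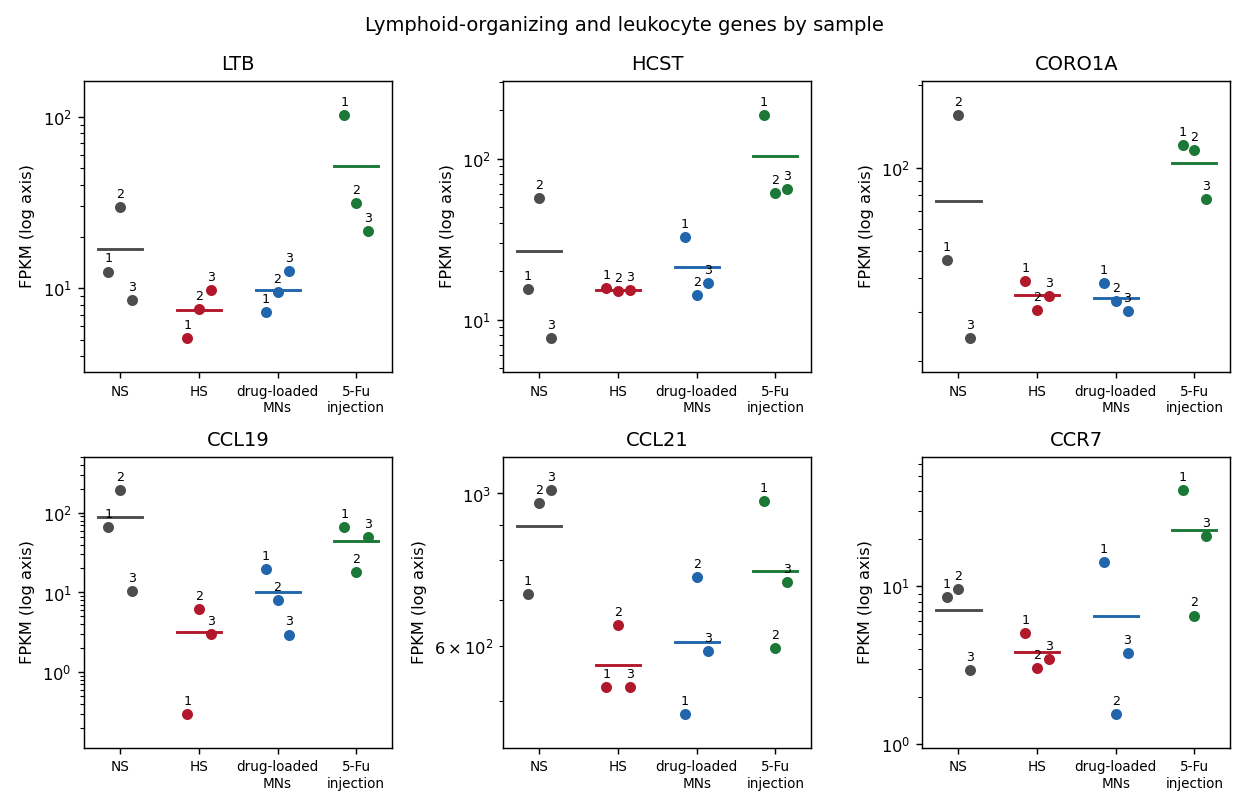
FPKM of 6 lymphoid and leukocyte genes by group on log axes, with points numbered by replicate and a line at the group mean. For LTB, HCST, CORO1A, CCL19 and CCR7 all 3 samples of the 5-Fu injection group lie above the 3 HS samples, and NS replicate 2 is high for LTB, HCST, CORO1A and CCL19.

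The pan-leukocyte genes were CORO1A and PTPRC. CORO1A, an actin regulator of leukocytes, was 46.5, 157 and 24.1 in NS, 38.9, 30.6 and 34.4 in HS, 38.2, 33.0 and 30.3 in drug-loaded MNs and 121, 116 and 77.1 in 5-Fu injection. The difference between 5-Fu injection and HS was 1.55 (SE 0.50, limma adjusted p = 0.0896), and 1.43 without replicate 1 (limma adjusted p = 0.180). PTPRC (CD45), the phosphatase on all leukocytes, was 4.48, 20.2 and 3.28 in NS, 5.77, 5.60 and 6.06 in HS, 6.24, 5.07 and 3.86 in drug-loaded MNs and 24.5, 13.0 and 7.23 in 5-Fu injection. Both genes were above HS in all injected samples, neither was called with all samples, CORO1A was called without NS replicate 2 or 3, and NS spanned nearly the whole range through its replicate 2.

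Between scar and normal skin the members moved in both directions. Of the 24 tested members, CR2 was called higher and CCL19 lower in HS than in NS, against 5.00% of all tested genes called (3.53% higher and 1.48% lower). In all genes, 469 were called higher and 196 lower, and this split was 311 and 749 when values were rescaled to total reads, under which both calls kept their direction. Over all 34 members HS lay wholly above NS for 3 (CR2, JCHAIN and POU2AF1) and wholly below for 5 (CD2, CTLA4, ICOS, CCL19 and CCL21), against 12.8% and 11.7% of all genes above 0 in at least 1 sample. The median log2 difference of the 34 was -0.37, against -0.01 over all tested genes, and -0.05 without NS replicate 2. Means were lower in HS for 27 of the 34, a count that includes NS replicate 2, the highest NS sample for 30 of the 34. The share of all genes with a lower mean in HS is not given here.

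Between drug-loaded MNs and HS no member was called by limma, against 0.00753% of all tested genes, and limma voom on the reads called none either. At an unadjusted p under 0.05 a single member (CR2, lower) was found, against 8.90%. Of the 34 members, 4 (LCK, CD2, ICOS and IL7R) lay wholly above HS and 2 (TCF7 and CD22) wholly below, against 6.68% and 7.28% of all genes above 0 in at least 1 sample, and the median difference was 0.11, against -0.02 over all tested genes. A p that misses the threshold with 3 samples per group does not show that the groups were alike.

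The comparison of 5-Fu injection with HS held the most differences. LTB and HCST were called higher and CR2 lower among the 24 tested members, against 2.29% of all tested genes (0.512% higher and 1.78% lower). At an unadjusted p under 0.05, 13 members were higher and 1 was lower, against 11.6% and 14.4% of all tested genes. Over all 34, the 5-Fu injection samples lay wholly above HS for 18 members and wholly below for CR2, against 10.1% and 11.5% of all genes above 0 in at least 1 sample. Mean expression was higher for 33 of 34 members, against 51.4% of all tested genes. This count and the median that follows include the 10 members too low for the test. The median difference was 1.01, against 0.02 over all tested genes, and 0.44 without replicate 1 of the injected group, and no member was called without that sample. The count was also 0 without NS replicate 1, drug-loaded MNs replicate 2, 5-Fu injection replicate 3 or any 1 HS sample, 1 without drug-loaded MNs replicate 1 or 3, 4 without NS replicate 2 or 3 (LTB, HCST, CCL19 and CORO1A), and 10 without 5-Fu injection replicate 2 (LTB, HCST, CCL19, CCR7, CXCR4, CD2, CD5, CD27 and ZAP70 higher and CR2 lower). Calls over all 13287 tested genes moved as well. They numbered 304 with all samples, 803 without 5-Fu injection replicate 2, 16 without its replicate 1 and 12 without its replicate 3. Without HS replicate 1, 2 or 3 they numbered 9, 0 and 0. They numbered 158 without NS replicate 1 and 169 without drug-loaded MNs replicate 2. Replicates 2 and 3 of the injected group alone were both above every HS sample for 18 of 34 members, against 15.5% of all genes above 0 in at least 1 sample.

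By list, the median difference between 5-Fu injection and HS fell from 1.73 to 1.07 for T cell receptor signalling without replicate 1, from 0.96 to 0.46 for T cell surface genes, from 1.33 to 0.52 for cytotoxic genes, from 1.30 to 1.05 for lymphoid-organizing genes, from 1.31 to 1.05 for pan-leukocyte genes and from 0.74 to 0.00 for B cell genes. For NKG7, POU2AF1, TCF7, CD22, PAX5 and CXCL13 the difference without this sample was at or under 0, as it was for CR2 with and without it.

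**Figure D5:**
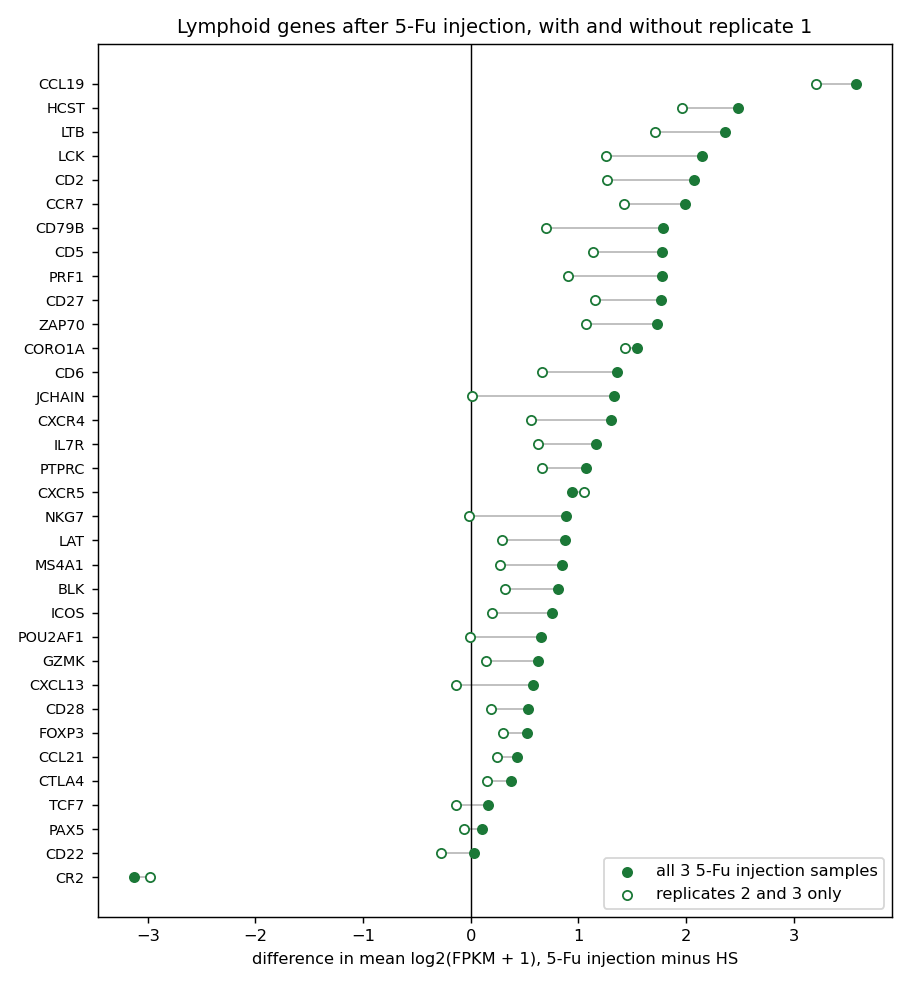
Difference in mean log2(FPKM + 1) between 5-Fu injection and HS for the 34 members, with all 3 injected samples (filled circles) and with replicates 2 and 3 alone (open circles). Most open circles lie nearer to 0, as for JCHAIN at 1.34 and 0.01, while CORO1A at 1.55 and 1.43 and CR2 at -3.13 and -2.98 moved little.

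Directly compared, drug-loaded MNs and 5-Fu injection gave no called member by limma or by limma voom, against 0.00% of all tested genes, so no difference between the treatments was shown. At an unadjusted p under 0.05, 12 members were lower in drug-loaded MNs, against 6.97% of all tested genes, among them HCST at -2.13, LTB at -2.00 and CD27 at -1.77 (SE 0.62, 0.55 and 0.52, limma adjusted p = 0.250 for each). CCL19 and CCR7 differed by -2.15 and -1.73. Over all 34, drug-loaded MNs lay wholly below 5-Fu injection for 12 members and wholly above for CR2, against 6.03% and 6.56% of all genes above 0 in at least 1 sample, and the median difference of -0.84 was -0.30 without replicate 1 of the injected group. Against NS, no member was called in drug-loaded MNs (0.873% of all tested genes called) or in 5-Fu injection (0.00753%), by limma or limma voom, with 4 members in each at an unadjusted p under 0.05 (12.9% and 14.9% of all tested genes). The median differences from NS were -0.22 in drug-loaded MNs and 0.82 in 5-Fu injection. Without NS replicate 2 they were 0.09 in drug-loaded MNs and 1.11 in 5-Fu injection. Without replicate 1 of the injected group that of 5-Fu injection was 0.23.

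Further genes of the pathways were read from separate lists. Of 28 genes of the lymphotoxin, BAFF and lymphoid chemokine pathways, 20 were found and 17 tested, and 1 was called lower in HS than in NS. This was CCL20, the ligand of CCR6, at 37.0, 20.3 and 21.1 in NS and 3.18, 2.42 and 5.61 in HS, a difference of -2.52 (SE 0.42, limma adjusted p = 0.00598). It was also lower in drug-loaded MNs than in NS, at -2.58 (limma adjusted p = 0.0232), and none of the 17 was called between 5-Fu injection and HS, where their median difference was 0.65. Of 30 further T and NK cell genes, 20 were found and 8 tested, and their median difference between 5-Fu injection and HS was 1.29, with none called. Of the 8, KLRD1, SH2D1A, SKAP1 and TBX21 reached a mean FPKM of 1 only through replicate 1 of the 5-Fu injection group. On the centred log2 scale the 8 averaged 1.90, -0.12 and -0.04 in 5-Fu injection and -0.76, -0.42 and -0.45 in HS. The median therefore leaned on that sample. Of the 20 found, 17 were highest in replicate 1 of the 5-Fu injection group. Of 22 further B and plasma cell genes, 17 were found and 12 tested, and RASGRP3, a guanine nucleotide exchange factor, was called higher in HS than in NS (12.8, 6.02 and 7.47 against 2.71, 4.07 and 3.57). MZB1, a chaperone of antibody secretion, was 50.1, 3.85 and 2.96 in 5-Fu injection and 12.1, 2.43 and 4.62 in drug-loaded MNs, high in the same samples as JCHAIN.

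Markers of other cells moved beside these results, and their part in them was not tested. The 11 fibroblast markers found of 12 listed, none at 0, summed to an FPKM of 6089 to 8634 in NS, 41319 to 54873 in HS, 22880 to 31239 in drug-loaded MNs and 10184, 31211 and 10953 in 5-Fu injection, where replicate 2 stood apart from the others. This is the sample without which 10 members in place of 3 were called between 5-Fu injection and HS. Without it, calls over all 13287 tested genes also rose, from 304 to 803, so the rise was not particular to the members. Of the fibroblast markers, 7 were called higher in HS than in NS and 4 lower after 5-Fu injection than in HS. The 15 macrophage, dendritic and granulocyte markers found of 16 summed to 208 to 8804 in NS, 380 to 3727 in HS, 363 to 7411 in drug-loaded MNs and 834 to 7610 in 5-Fu injection, and these sums overlapped throughout. S100A8 and S100A9 weighed heavily in them, with group means of 656 and 702 in HS and 1739 and 1463 in drug-loaded MNs. Of the 14 tested, PRAM1 was called higher after 5-Fu injection than in HS, 3 were higher and 2 lower at an unadjusted p under 0.05, and the median log2 difference was 0.74. The 6 keratinocyte markers found of 12 summed to 2403 to 4031 in NS, 1400 to 1993 in HS, 3832 to 9059 in drug-loaded MNs and 2962 to 5572 in 5-Fu injection. The 6 cartilage markers found of 8 summed to 1417 to 2970 in NS, 441 to 4524 in HS, 777 to 4517 in drug-loaded MNs and 5120, 438 and 842 in 5-Fu injection, with none called, and the highest sum was that of replicate 1 of the injected group, in which most lymphoid genes were highest. The 11 type I interferon response genes found of 16 summed to 592, 1731 and 129 in NS, 93.8 to 140 in HS, 107 to 288 in drug-loaded MNs and 468, 270 and 194 in 5-Fu injection. All 3 injected samples lay above HS, replicate 1 being the highest of them, with a median log2 difference of 0.95 and none called, and 10 of the 11 were highest in NS replicate 2, the NS sample in which the lymphoid genes were high.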

How the data were processed

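Bulk RNA-seq of 12 rabbit ear samples in 4 groups of 3 was used, with groups and replicates taken from the labels. Values for 29587 genes (8170 at 0 in all samples) are FPKM as the authors deposited them. The aligner, counting tool and genome build are not given in the sources used here, and coordinates are those of the table. Multiplied by gene length, 100% of values fell within 0.05 of whole reads, and the reads served only limma voom, as an alternative. DESeq2, which the authors ran on counts, was left out because the table holds FPKM.

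Groups were compared with limma 3.58.1 in R 4.3.3, in 1 fit of 4 groups on log2(FPKM + 1) with a mean-variance trend, over the 13287 genes whose mean FPKM reached 1. The procedure was run on simulated data with the same dispersion for every gene and no outlying library. That run does not show how it performs on these members. Members were matched by symbol, and 8 of the 11 absent symbols by protein description. Members and lists were chosen with earlier results of these data known. Values in every sample are given for members called in any comparison, the 5 with the largest change in each of 4 comparisons and the 2 highest of each list. Other members and genes are named by role or call, and MZB1 was chosen after its values were seen. Replicate numbers did not pair samples, since groups were separate rabbits. The result of 1 gene outside the members is not reported here.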

Additional observations from a re-analysis of the deposited data

How the results depend on the processing

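Over 10 settings that kept all samples, 12 that left out 1 sample and 1, chosen after seeing the data, that left out both 5-Fu injection replicate 1 and NS replicate 2, no result reversed. Between HS and NS, 2 members were called. This count was 1 (CR2) without a filter on low values and with the replicate block, 0 with limma voom and with the compared groups alone, and 1 to 3 with 1 sample left out. Between 5-Fu injection and HS, 3 members were called. This count was 1 (LTB) with quantile normalization and without the mean-variance trend, and 0 without a filter on low values, with limma voom, with the compared groups alone, with the replicate block and without both libraries. With 1 sample left out it was 0 to 10, against 0 to 803 of all 13287 tested genes. Both the 10 and the 803 came without 5-Fu injection replicate 2. Between drug-loaded MNs and NS the count was 0, and 0 to 1 with 1 sample left out (CR2 without HS replicate 1). Drug-loaded MNs against HS, drug-loaded MNs against 5-Fu injection and 5-Fu injection against NS had 0 called members in each setting run. Of 482 named differences under alternatives, 395 kept direction and call, 82 lost the call and 5 gained it. The cause was not tested.

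The replicate block is a check only, since same-numbered samples come from separate rabbits and their deviations correlated at -0.269 to 0.441. Rescaling to total reads moved the median of all genes to -0.33 between HS and NS and to 0.13 between 5-Fu injection and HS. Depth limits the 10 members under a mean FPKM of 1, and the 3 samples per group limit all others.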
